A study of Mus musculus with 4 samples.

Results

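The genes described here repair DNA interstrand crosslinks and double-strand breaks by the Fanconi anaemia and homologous recombination pathways, together with checkpoint kinases and a few direct or single-strand repair enzymes. They were chosen by name, as a list of 38 gene symbols. Of these, 35 had an array row that carries their symbol alone, out of 22180 genes tested. Fanca was represented by a row shared with Zfp276, and Xrcc2 and Rbbp8 were not analysed here.

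The cells were BR5FVB1-Akt, a cultured mouse line labelled as ovarian cancer. The decitabine group held 2 samples of cells given 10 uM decitabine for 72 h, and the control group held 2 samples of the same line without the drug. RNA of each sample was hybridised to its own Affymetrix Mouse Gene ST array, a platform that reads each gene with many short probes. The labels describe the samples of a group as biological replicates without saying how they were cultured. The p-values thus rest on the spread between 4 arrays, with the variance of each gene drawn towards that of all genes. As background from outside these files, lines of the BR5 series are known as mouse ovarian tumour models that lack Brca1 and p53 and carry Myc and Akt transgenes. The labels used here do not give that genotype, and a row for a whole gene does not show which of its exons were transcribed.

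Crosslink repair starts when the Fanconi core complex, a multi-subunit ubiquitin ligase, attaches ubiquitin to FANCD2 and FANCI at a stalled replication fork. Nucleases held by SLX4 then cut the crosslink out, and the resulting double-strand break is resected and repaired by strand invasion, which BRCA1, PALB2 and BRCA2 make possible. Decitabine is a cytidine analogue that is built into replicating DNA and holds DNA methyltransferases covalently on it at CG dinucleotides, so it both lowers DNA methylation and leaves bulky protein adducts on the DNA. Many repair genes of these pathways are transcribed mostly in cells that replicate their DNA.

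None of the 35 repair genes changed by the threshold used for all genes, an adjusted p under 0.05 in limma with Benjamini-Hochberg adjustment over the 22180 genes. Across all genes 0.131% of genes passed as higher and 0.0135% as lower. At an unadjusted p under 0.05, 1 repair gene (2.86%) was higher with decitabine and 3 (8.57%) were lower, beside 7.34% and 6.97% of all genes. The higher one was Fancb and the lower ones were Fancl, Mgmt and Rad51c. In limma with a variance that depends on the level of the gene, called the intensity trend here, Fancb rose and Mgmt fell, 1 gene (2.86%) in each direction, beside 3.68% and 3.6% of all genes. At an unadjusted p under 0.05 with the trend, 4 of the 35 repair genes were higher and 4 lower, beside 9.25% and 9.38% of all genes. At an adjusted p, at most 1 repair gene passed in each direction in either fit. Counts that small cannot tell the shares of repair genes from those of all genes. At the unadjusted threshold with the trend, both sides were above those of all genes, on 4 genes each. Without the trend, the higher side was below that of all genes and the lower side above it. That lower side rests on 3 genes, a count that changed when 1 array was left out.

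The promoter windows of the 3 repair genes with the largest differences are shown because decitabine acts on DNA methylation at CG dinucleotides. Each window runs from 250 bases before to 50 bases after a RefSeq transcription start, on assembly GRCm38.p6, and is printed 5′ to 3′ along the gene with its CG dinucleotides in capitals. The Fancb window lies at chrX:164980342-164980641 on the plus strand, the first of 2 Mgmt windows at chr7:136894336-136894635 on the plus strand, and the Fancl window at chr11:26386834-26387133 on the plus strand.
Fancb: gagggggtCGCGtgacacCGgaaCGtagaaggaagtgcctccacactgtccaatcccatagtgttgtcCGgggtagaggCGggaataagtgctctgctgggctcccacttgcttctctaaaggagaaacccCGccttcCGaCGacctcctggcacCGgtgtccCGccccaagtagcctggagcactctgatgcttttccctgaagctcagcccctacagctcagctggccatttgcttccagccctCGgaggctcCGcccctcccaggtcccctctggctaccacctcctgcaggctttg
Mgmt: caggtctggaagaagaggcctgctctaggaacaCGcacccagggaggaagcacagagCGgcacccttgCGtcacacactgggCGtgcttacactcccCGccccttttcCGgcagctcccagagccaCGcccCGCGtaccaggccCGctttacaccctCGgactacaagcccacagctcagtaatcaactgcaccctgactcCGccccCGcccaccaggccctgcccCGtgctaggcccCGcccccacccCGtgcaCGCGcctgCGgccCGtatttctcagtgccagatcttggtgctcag
Fancl: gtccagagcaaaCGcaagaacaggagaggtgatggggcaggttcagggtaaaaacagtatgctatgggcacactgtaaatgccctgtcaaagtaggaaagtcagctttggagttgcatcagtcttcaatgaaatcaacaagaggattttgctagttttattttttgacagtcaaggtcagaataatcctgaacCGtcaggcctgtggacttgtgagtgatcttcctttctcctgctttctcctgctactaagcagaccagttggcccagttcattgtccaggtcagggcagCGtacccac

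The Fancb window holds 13 CG dinucleotides, the Mgmt window shown 20 and the Fancl window 3. A second RefSeq start of Mgmt has a window with 3. Windows were available for 30 of the repair genes, and, taking the window richest in CG where a gene has several, their median was 22.5 CG dinucleotides, with a range of 3 to 32. Over all 27025 genes of the RefSeq table the median was 8.0. A core binding motif of E2F, the factor that switches on S phase genes, was searched as TTTCCCGC and TTTGGCGC on both strands. It was found in 5 of the 30 repair genes (16.7%), namely Bard1, Brca2, Rad51c, Fancg and Chek2, and in 1.8% of all genes of the table. Both motifs contain a CG, and the shares were not compared at equal CG content. The table is also not limited to the genes tested on the arrays, so the 2 shares are not matched. Of the 5 repair genes with a motif, Bard1, Brca2, Rad51c and Chek2 had log2 fold changes between -0.29 and -0.15 and Fancg had 0.03, none of which passed the threshold. DNA methylation was not analysed here, so the windows describe sequence only.

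Among the BRCA mediators of recombination, Brca1 and Brca2 lay on opposite sides of 0. Brca1, whose product forms a ubiquitin ligase with BARD1 and promotes resection, had log2 levels of 7.67 and 7.60 on the decitabine arrays, against 7.24 and 7.45 on the control arrays. The decitabine arrays of Brca1 were both above the control arrays. Its log2 fold change was 0.29 ± 0.12 (moderated SE, 2 arrays per group, adjusted p = 0.359 in limma, and 0.11 with the intensity trend). The value after each ± is this moderated SE of limma, which also draws on the spread of all genes. It can therefore exceed the spread of a gene's own replicates. Brca2, a mediator of strand invasion, had 6.85 and 6.29 with decitabine, against 6.92 and 6.79 in controls. Here decitabine replicate 2 alone was low, and the difference of -0.29 ± 0.20 became -0.01 without that array and -0.57 without decitabine replicate 1. Bard1, the partner of BRCA1, was at -0.15 ± 0.09 with nearly equal replicates, 6.28 on each decitabine array against 6.44 and 6.42 in controls. Palb2, which joins BRCA1 to BRCA2, was at 0.02 ± 0.11.

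**Figure D1:**
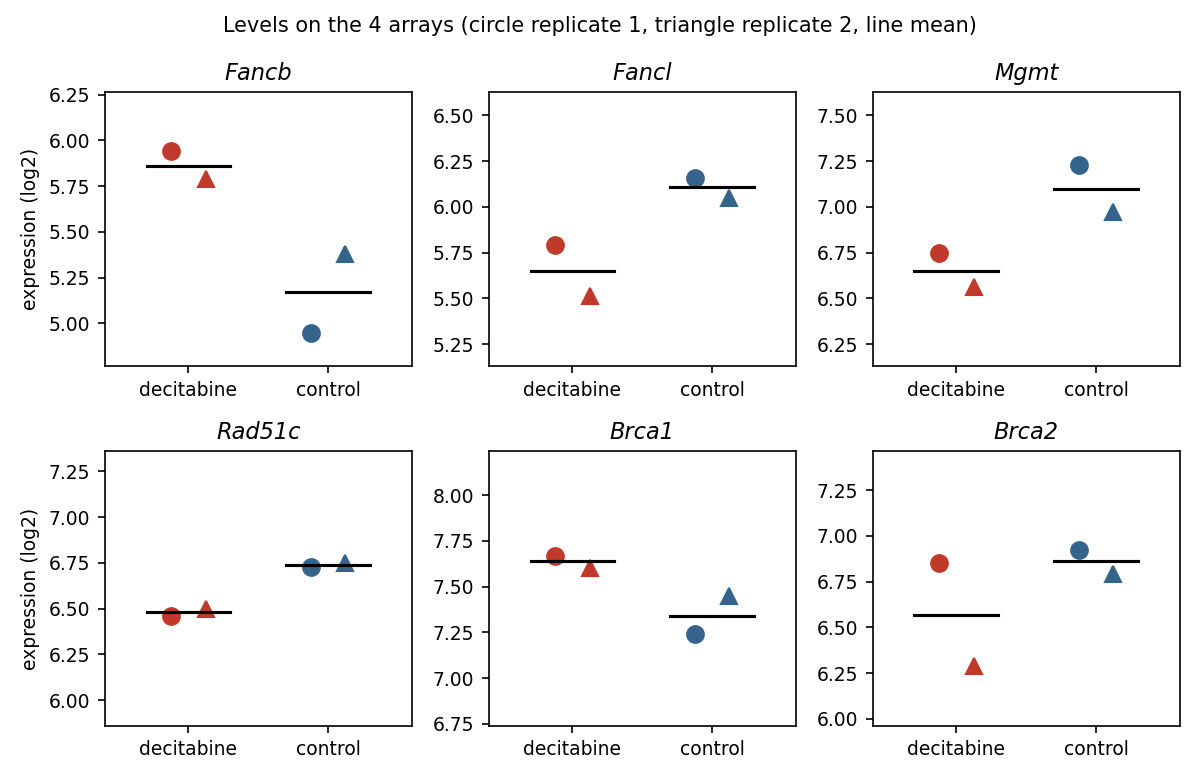
Log2 expression of 6 repair genes on each array, decitabine at the left and control at the right of each panel, with a circle for replicate 1, a triangle for replicate 2 and a line at the group mean; every panel spans the same 1.5 log2 units. Fancb lies higher and Fancl, Mgmt and Rad51c lie lower on both decitabine arrays than on both control arrays, while the decitabine arrays of Brca2 are far apart.

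Of the genes of strand exchange, Rad51c, whose product acts in recombination, had the smallest unadjusted p. Its levels were 6.46 and 6.50 with decitabine, against 6.73 and 6.75 in controls, so the replicates lay within 0.04 of each other in both groups and the groups did not overlap. The log2 fold change was -0.26 ± 0.10 (unadjusted p = 0.0433, adjusted p = 0.332 in limma). Rad51d was at -0.14 ± 0.10, also with both decitabine arrays below both control arrays, while Rad51b was at 0.13 ± 0.15 and Xrcc3 at 0.07 ± 0.10 with overlapping arrays. Rad54l, a motor protein that remodels the invading strand, had 6.47 and 6.44 with decitabine, against 6.08 and 6.38 in controls. Control replicate 1 of Rad54l was low, and the difference was 0.22 ± 0.13 with it and 0.07 without it. A brighter row that the array annotation shares between Rad54l and Lrrc41 read 7.54 and 7.47 with decitabine, against 7.58 and 7.52 in controls. That row overlapped between groups, with a difference of -0.04, and which of its probes measure Rad54l is uncertain. Rad52, which anneals single strands, was at -0.07 ± 0.13.

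The widest differences of the list were within the Fanconi core complex, and they ran in opposite directions. Fancb (array row 17539586), an X-linked gene whose product is needed for ligase activity of the core, had log2 levels of 5.94 and 5.79 on the decitabine arrays, against 4.95 and 5.38 on the control arrays. The decitabine arrays were both higher, by a log2 fold change of 0.70 ± 0.17, a 1.62-fold difference with a 95% interval of 1.20 to 2.20. It did not pass in limma without the trend (adjusted p = 0.208) and rose with it (adjusted p = 0.0303). The difference was 0.48 without control replicate 1 and 0.91 without control replicate 2. With the trend the adjusted p was 0.308 without control replicate 1, 0.0687 without control replicate 2, 0.0848 without decitabine replicate 1, 0.0459 without decitabine replicate 2 and 0.213 when all 41345 rows were fitted.

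Fancl (array row 17247898, chromosome 11), the ubiquitin ligase subunit of the core, differed the other way. It had 5.79 and 5.51 with decitabine, against 6.16 and 6.05 in controls, and both decitabine arrays were lower. The log2 fold change was -0.46 ± 0.13 (adjusted p = 0.248 in limma, and 0.0786 with the trend). That difference lay between -0.60 and -0.32 when 1 array was left out. A further row that the array annotation shares between Fancl and Vrk2 read 5.54 and 5.52 with decitabine, against 5.47 and 5.48 in controls. That row, with a difference of 0.06, did not show the lower values of the Fancl row, and which of its probes measure Fancl is uncertain.

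The other core subunits differed less. Fancm, a DNA translocase that anchors the core on DNA, was at 0.24 ± 0.14, with 7.59 and 7.28 on the decitabine arrays against 7.15 and 7.23 on the control arrays, and at 0.09 without decitabine replicate 1. Fancc was at -0.24 ± 0.15, with -0.07 without control replicate 1 and -0.42 without control replicate 2, and its mean level was at percentile 30.1 of all genes, with no background level used here to say whether it was detected. Fance (0.01 ± 0.10), Fancf (-0.10 ± 0.14) and Fancg (0.03 ± 0.10) had overlapping arrays. The row shared by Fanca and Zfp276 read 7.27 and 6.96 with decitabine, against 6.66 and 6.99 in controls, and its groups overlapped. The median over the 7 core genes measured was 0.01.

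Downstream of the core, Fancd2 and Fanci, whose products form the ubiquitinated clamp, had positive differences that did not pass. Fancd2 had 8.44 and 8.39 with decitabine, against 8.11 and 8.36 in controls, a difference of 0.18 ± 0.12. Fanci was at 0.10 ± 0.10. In both genes control replicate 1 was the lowest array, and without it their median difference was 0.04 instead of 0.14. The nuclease scaffold Slx4 (-0.03 ± 0.10), the nuclease pair Ercc1 (-0.07 ± 0.10) and Ercc4 (-0.04 ± 0.13), which cut at the crosslink, and the helicase Brip1 (0.14 ± 0.10), which binds BRCA1, had a median difference of -0.04, and of 0.01 without control replicate 1. For each of these 4 genes the 95% interval lay inside a 1.5-fold difference in either direction.

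**Figure D2:**
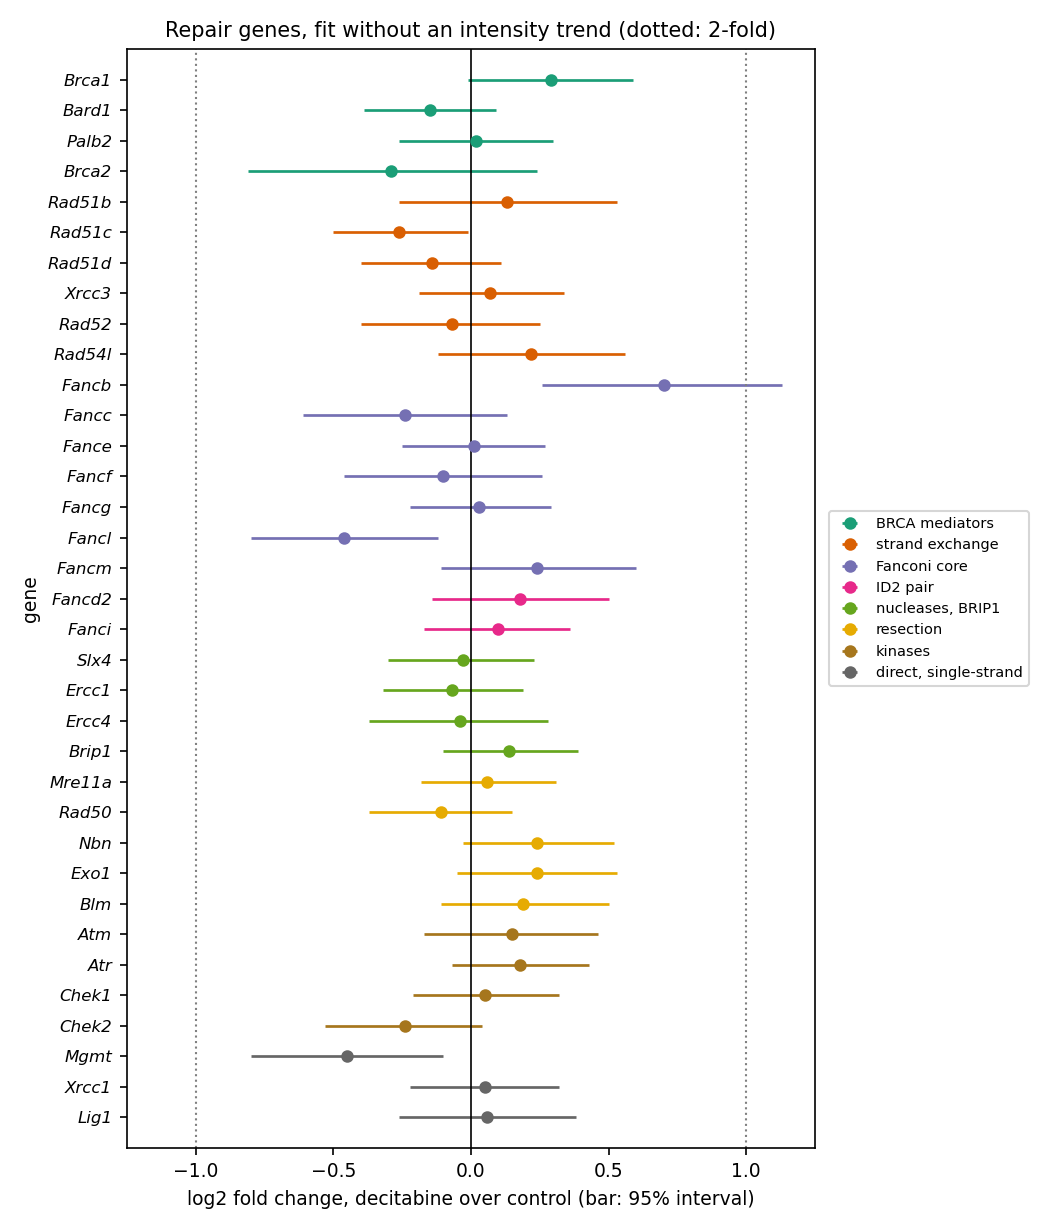
Log2 fold change of decitabine over control for the 35 repair genes, ordered and coloured by role, with bars for limma's 95% interval from the fit without an intensity trend and dotted lines at a 2-fold difference. The interval of Fancb alone reaches beyond 2-fold, and those of Fancb, Fancl, Mgmt and Rad51c do not include 0.

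Of the 5 end resection genes measured, 4 had positive differences, beside 50.7% of all genes, and none passed the test. Nbn, part of the MRN complex that senses broken ends, had 7.69 and 7.55 with decitabine, against 7.34 and 7.41 in controls (0.24 ± 0.11). Exo1, the long-range resection nuclease, had 8.44 and 8.31, against 8.21 and 8.06 in controls (0.24 ± 0.11). The helicase gene Blm was at 0.19 ± 0.12 and the MRN nuclease Mre11a at 0.06 ± 0.10, and both decitabine arrays exceeded both control arrays in each of these 4 genes, as in 23.4% of all genes. The third MRN component, Rad50, lay the other way, with 8.56 and 8.69 against 8.74 and 8.73 in controls (-0.11 ± 0.10). None passed in limma, with adjusted p between 0.392 and 0.82, and the group's median was 0.19 with all arrays and 0.08 without control replicate 1.

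The kinases that signal damage had differences in both directions, and none passed. Atr, the kinase of stalled forks, had 6.57 and 6.61 on the decitabine arrays, against 6.44 and 6.37 on the control arrays (0.18 ± 0.10). A second Atr row, dimmer than the one reported, read 4.57 and 4.48 with decitabine, against 4.76 and 4.86 in controls, a difference of -0.29. The rows of Atr therefore disagreed in direction, and their mean was at -0.05. Chek1, the kinase that ATR activates, was at 0.05 ± 0.10 with overlapping arrays. Atm, the kinase of double-strand breaks, was at 0.15 ± 0.12, and at 0.04 without control replicate 1. Chek2, which ATM activates, had 7.21 and 7.03 with decitabine, against 7.34 and 7.39 in controls (-0.24 ± 0.11, adjusted p = 0.41 in limma, and 0.198 with the trend).

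Mgmt (array row 17484271, chromosome 7), which removes alkyl groups from guanine and is silenced by promoter methylation in some human tumours, was lower with decitabine. Its log2 levels were 6.75 and 6.56 on the decitabine arrays, against 7.23 and 6.97 on the control arrays, without overlap. The log2 fold change was -0.45 ± 0.14, a ratio of 0.734 with a 95% interval of 0.576 to 0.934. The adjusted p in limma was 0.263 without the trend and 0.0459 with it, and with the trend it was 0.426 without control replicate 1, 0.118 without control replicate 2, 0.0309 without decitabine replicate 1, 0.169 without decitabine replicate 2 and 0.254 when all rows were fitted. The scaffold of single-strand break repair, Xrcc1 (0.05 ± 0.11), and the replicative ligase Lig1 (0.06 ± 0.13) had overlapping arrays.

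Across the list, both decitabine arrays lay above both control arrays for 12 genes (34.3%, beside 23.4% of all genes) and below them for 9 (25.7%, beside 22.5%). The remaining 14 overlapped. The difference was above 0 in 21 genes (60.0%, beside 50.7% of all genes). The median log2 fold change was 0.05, beside 0.00 over all genes, and was 0.02 without control replicate 1 or without decitabine replicate 1, and the median size of the difference regardless of direction was 0.14, beside 0.13. For 34 of the 35 genes the 95% interval lay inside a 2-fold difference either way, as for 96.0% of all genes, and for 28 genes (80.0%) inside a 1.5-fold difference, beside 69.3%. These intervals come from the fit without the trend, and the shares were not compared at equal level. The median level of the repair genes was at percentile 69.6 of all genes. Of the 121 other repair genes described below, 89.3% lay inside a 1.5-fold difference. The number of arrays limits the precision, and an exact permutation test of a single value with 2 arrays per group cannot give a two-sided p below 0.333.

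The gaps between replicate arrays were of the same order as the differences between groups. The median gap between the arrays of a group was 0.09 for decitabine and 0.10 for control, in log2 units over the 35 genes. In 13 genes (37.1%) the difference between groups exceeded both gaps, as it did in 34.1% of all genes. Decitabine replicate 1 was above decitabine replicate 2 in 25 of the 35 repair genes (71.4%), beside 51.4% of all genes. Among the 30 measured S phase and proliferation genes this was so in 14 (46.7%). Control replicate 1 was below control replicate 2 in 21 (60.0%), beside 47.9% of all genes, and in 25 of the 30 measured S phase and proliferation genes (83.3%). The part of this gap in the differences of Brca1, Rad54l, Fancb, Fancd2 and Blm, in which control replicate 1 was lower by 0.21 to 0.43, was not tested beyond leaving the array out. Without it the differences of these genes were 0.19, 0.07, 0.48, 0.05 and 0.08.

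**Figure D3:**
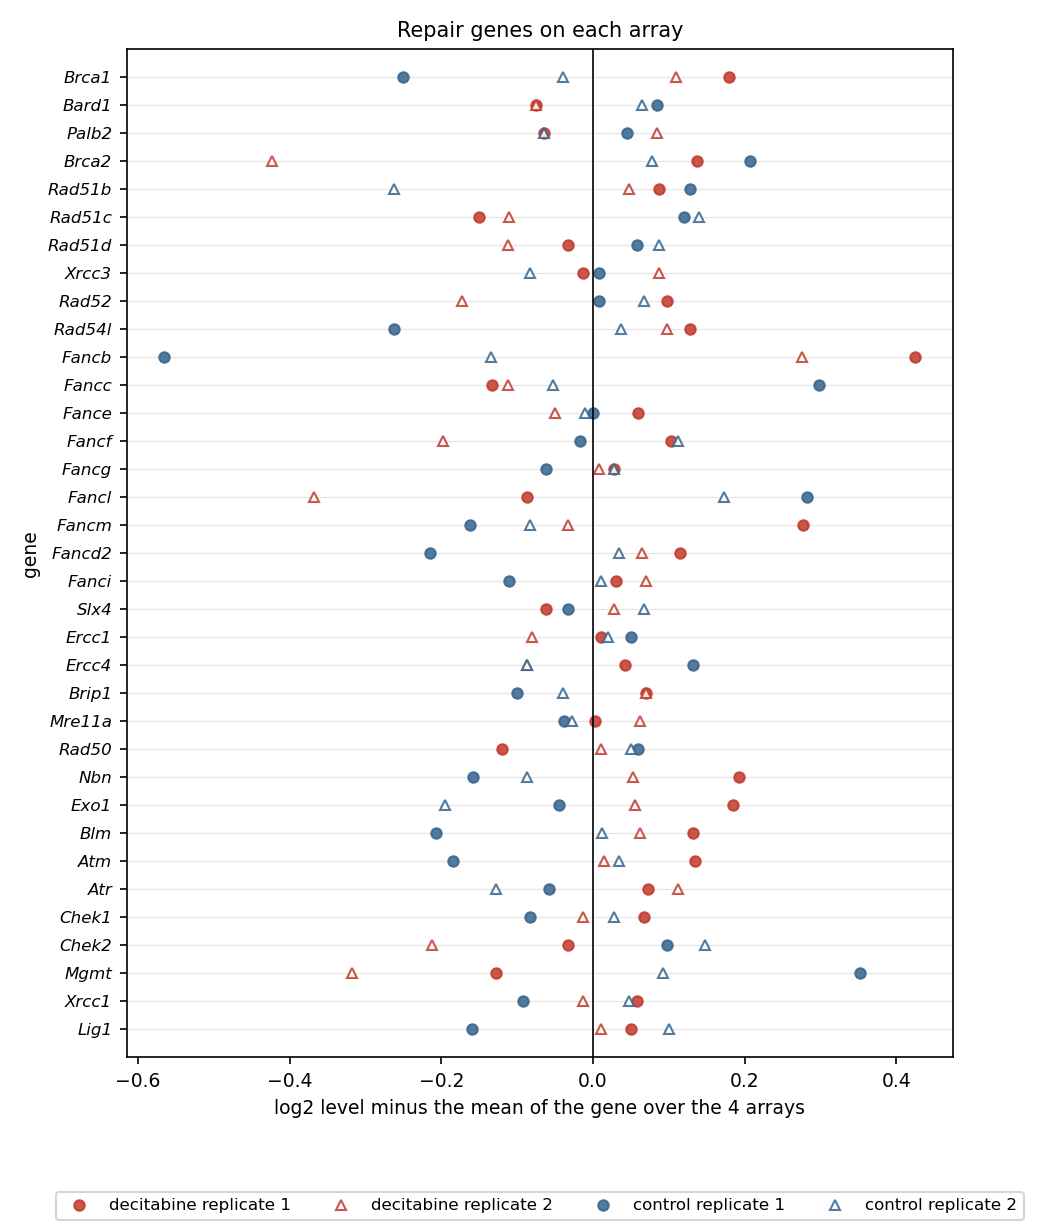
Log2 level of each of the 35 repair genes on each array, minus that gene's mean over the 4 arrays, with decitabine in red, control in blue, filled circles for replicate 1 and open triangles for replicate 2. Control replicate 1 is the lowest array in Fancb, Brca1, Rad54l, Fancd2 and Blm, and decitabine replicate 2 is the lowest in Brca2, Fancl and Mgmt.

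Other repair genes were read in the same fit from 7 further lists with 121 measured genes. In limma without the trend 0 passed. The unadjusted p was under 0.05 for 7 that were higher (5.79%, beside 7.34% of all genes) and 7 that were lower (5.79%, beside 6.97%). With the trend 5 rose (4.13%, beside 3.68% of all genes) and 2 fell (1.65%, beside 3.6%), and the median was -0.01. Among other crosslink genes (18 measured, median 0.00), Rad18, a ubiquitin ligase of damage tolerance, had 9.27 and 9.28 with decitabine, against 9.05 and 9.02 in controls, and rose with the trend (0.24 ± 0.09, adjusted p = 0.0432). The crosslink nuclease gene Fan1 was at -0.46 ± 0.13 and Eme1, a partner of the MUS81 nuclease, at 0.32 ± 0.12. Among other recombination genes (32 measured, median -0.04, and 0.02 without control replicate 2), the junction resolvase gene Gen1 rose with the trend, with 7.40 and 7.39 against 7.07 and 7.02 in controls. Rpa3, the small subunit of the single-strand binding complex, fell with it, with 9.18 and 9.30 against 9.55 and 9.69 in controls. Mcm9, a helicase subunit gene, was at -0.40 ± 0.10.

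Of 24 other checkpoint genes (median 0.09), 2 passed with the trend, both higher (8.33%, beside 3.68% of all genes). The median of that list was -0.03 without control replicate 1 and 0.02 without decitabine replicate 1. Rad9a, a subunit of the damage clamp, had 9.50 and 9.49 with decitabine, against 9.17 and 9.11 in controls (0.36 ± 0.10, adjusted p = 0.00618 with the trend). Topbp1, the direct activator of ATR, had 9.90 and 9.91, against 9.54 and 9.64 in controls (0.31 ± 0.10, adjusted p = 0.0108 with the trend), and the paralog Rad9b was at -0.44 ± 0.15. In end joining (10 measured, median 0.02), Xrcc5, which encodes Ku80, fell with the trend (-0.29 ± 0.10, adjusted p = 0.0269), and Polm (-0.15 ± 0.10) and Poll (0.16 ± 0.12) did not pass. Among nucleotide excision repair genes (14 measured, median 0.01), the TFIIH subunit gene Gtf2h1 had 8.37 and 8.45, against 7.86 and 7.86 in controls (0.55 ± 0.10, adjusted p = 0.142, and 0.00165 with the trend), with Cetn2 at -0.21 ± 0.11 and Ercc3 at 0.19 ± 0.10. No gene passed either way among base excision and alkylation repair genes (18 measured, median -0.12; Mbd4 -0.33 ± 0.09, Fen1 0.28 ± 0.12, Neil2 -0.29 ± 0.15) or mismatch repair genes (5 measured, median -0.19, and -0.07 without decitabine replicate 2; Msh6 -0.22 ± 0.10, Msh3 0.21 ± 0.11, Pms2 0.21 ± 0.11).

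**Figure D4:**
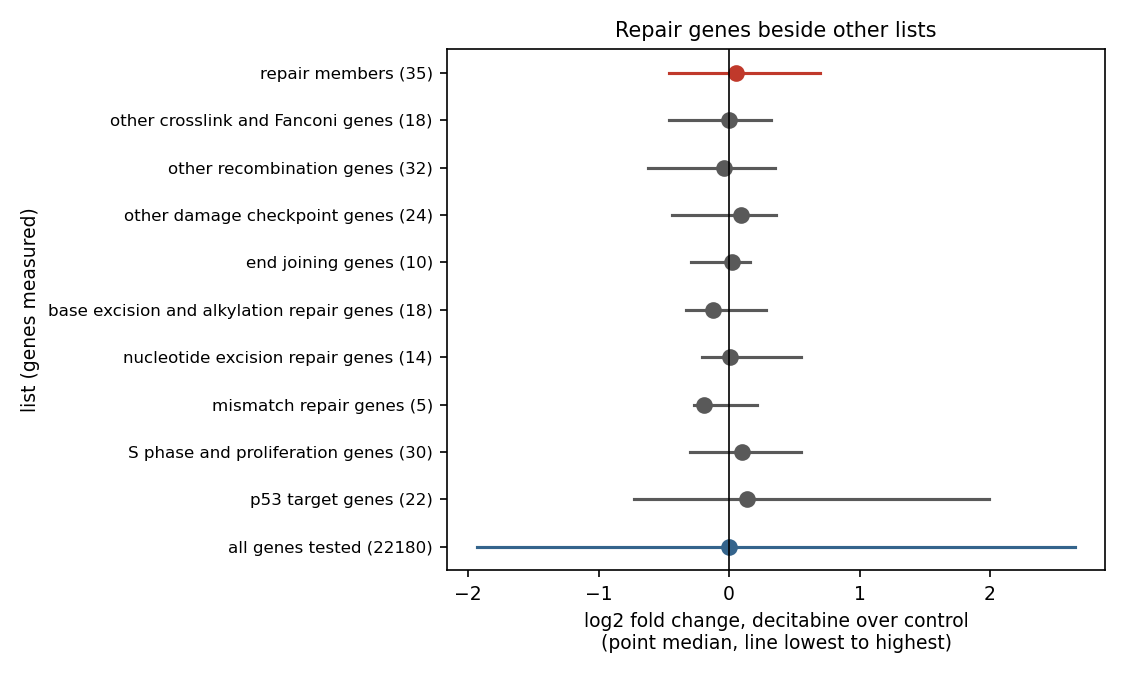
Median (point) and lowest to highest (line) log2 fold change of decitabine over control for the repair genes, for 9 further lists and for all 22180 genes tested, with the number of genes measured in brackets. The repair genes have a median of 0.05 within a range of -0.46 to 0.70, while the p53 targets reach 1.99.

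Proliferation and p53 target genes were read on the same arrays because repair genes follow the cell cycle. Of 30 S phase and proliferation genes 0 passed in limma without the trend. The unadjusted p was under 0.05 for 5 that were higher (16.7%, beside 7.34% of all genes) and 1 that was lower (3.33%, beside 6.97%). With the trend 5 rose (16.7%, beside 3.68% of all genes) and 1 fell (3.33%, beside 3.6%). The median of the S phase genes was 0.10, and 0.06 without control replicate 1. Cdc6, which licenses replication origins, had 8.41 and 8.42 with decitabine, against 7.83 and 7.89 in controls (0.55 ± 0.10), E2f7 was at 0.42 ± 0.10 and Mcm5 at 0.34 ± 0.10. Of 22 p53 targets (median 0.14) the unadjusted p was under 0.05 for 7 that were higher (31.8%, beside 7.34% of all genes) and 3 that were lower (13.6%, beside 6.97%). Plk2 alone passed without the trend (1.99 ± 0.11, adjusted p = 0.0329), and no gene of the table passed without the trend once any array was left out. The cell cycle inhibitor gene Cdkn1a had 7.78 and 7.52, against 6.35 and 6.33 in controls (1.31 ± 0.12, adjusted p = 0.0579, and 7.14e-05 with the trend). Trp53inp1 was at -0.68 ± 0.12 (adjusted p = 0.135, and 0.00743 with the trend). As given above from outside these files, lines of the BR5 series are known to lack p53. The part of p53 in the values of its target genes was not tested. The part of proliferation in the values of the repair genes was not tested.

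The arrays themselves were alike, with medians of 4.60 and 4.66 for decitabine and 4.60 and 4.60 for control over all rows, and Gapdh was at 0.00 ± 0.09, Actb at 0.11 ± 0.11 and Dnmt1, the methyltransferase that decitabine traps, at 0.19 ± 0.10. Of 12 ovarian epithelial and mesothelial markers, 6 had a mean level above percentile 75 of all genes, among them Krt18, Wt1 and Upk3b, and 3, Epcam, Muc16 and Pax8, were below the median. Fibroblast markers were above that percentile in 5 of 10 cases, whereas 0 of 9 leukocyte and 0 of 7 endothelial markers were. The median difference was 0.25 over the epithelial and mesothelial markers, 0.08 over the fibroblast, 0.16 over the leukocyte and 0.14 over the endothelial markers. The epithelial and mesothelial median was 0.15 without decitabine replicate 1, the fibroblast median 0.03 without control replicate 1, and the endothelial median 0.02 without control replicate 2. Without the trend limma called 0 of the 38 measured markers, and with it 7 rose and 3 fell, beside 3.68% and 3.6% of all genes. The unadjusted p was under 0.05 for 10 markers that were higher and for 2 that were lower, beside 7.34% and 6.97% of all genes. The mesothelial genes Upk1b (0.85 ± 0.10) and Msln (0.86 ± 0.10), the keratin gene Krt8 (0.53 ± 0.13), the surface antigen gene Thy1 (1.48 ± 0.17) and the lysosomal gene Cd68 (0.45 ± 0.10) rose with the trend, and the growth factor receptor gene Pdgfra (-0.28 ± 0.10) fell. The epithelial and mesothelial markers did not move together, since 5 of the 12 rose and 2 fell with the trend. Both decitabine arrays were above both control arrays in 9 of them and below in 3. Those 3 were Wt1 (10.56 and 10.53, against 10.78 and 10.86 in controls), Upk3b (11.77 and 11.77, against 11.99 and 11.94) and Muc16. Postn was at 0.28 ± 0.11, Itgam at 0.50 ± 0.11, Csf1r at 0.25 ± 0.13, Kdr at 0.38 ± 0.12, Cdh5 at 0.43 ± 0.14 and Emcn at 0.14 ± 0.13. The part of these markers in the values of the repair genes was not tested. In RNA from a whole culture, fewer cells expressing a gene and less RNA per cell cannot be told apart.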

How the data were processed

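The deposited table holds 1 value per array row for 4 arrays. Its log2 unit is a reading of the values as the authors deposited them, since they run from 0.55 to 13.26 with 0 missing cells. The log base, summarisation, background correction and normalization are not given in the sources used here, so fold changes depend on the scale being log2. Of 41345 rows, 23521 carried 1 gene symbol, 1814 several and 16010 none in the platform table. The single-symbol row with the highest mean was kept per gene, which left 22180 genes, and 0 columns belonged to other series.

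Sample titles gave the groups. Decitabine was set against control in every gene by limma 3.58.1 under R 4.3.3 (lmFit, then eBayes, two-sided, group as the only term, Benjamini-Hochberg over all genes, threshold 0.05). The procedure was run on simulated data whose variance did not depend on level and whose changes were larger than any repair gene showed. That run does not measure the power for differences of the size seen here. The prior had 3.07 degrees of freedom without the intensity trend and 8.56 with it. Lists are described by counts and medians, with no set test. The rule for named genes took all 38 listed genes, the 3 genes of each further list with the smallest unadjusted p, and Dnmt1, Cdkn1a, Actb and Gapdh. Members and lists were chosen with earlier results of these data known. Promoter windows are from RefSeq, assembly GRCm38.p6, matched by symbol for 30 of 35 genes, and chromosomes from the RefSeq gene table of that assembly. Figures used Python 3.11.15 and matplotlib 3.10.9.

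The 19 alternatives were the trend, quantile normalization, centring, a filter on level (25th percentile or median), the mean of rows, a replicate block, robust eBayes, all rows, and leaving out each array. The block, all rows and left-out arrays were fitted with and without the trend. Trp53 was not analysed here.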

Additional observations from a re-analysis of the deposited data

How the results depend on the processing

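Same-numbered arrays did not deviate together over all genes (correlation of same-numbered deviations -0.018, 2 pairs). With 2 pairs this cannot show whether same-numbered samples were prepared together. The main fit has no replicate block, and the block is given only here. All genes called higher numbered 29, against 817 with the trend, 52 centred, 151 and 635 above the 25th percentile and the median level, 15 with robust eBayes, 0 with the replicate block (smallest adjusted p 0.106), 941 with block and trend, 0 over all rows (0.282), 126 over all rows with the trend, and, without 1 array, 0 in each case without the trend and 222 (control 1), 216 (control 2), 668 (decitabine 1) and 566 (decitabine 2) with it. Those called lower numbered 3, against 798, 10, 64 and 616 in the first 4 of these settings, 0 and 955 with the block without and with the trend, 5 with the mean of rows, 0 and 60 over all rows without and with the trend, and, without 1 array, 0 without the trend and 116, 183, 937 and 445 in the same order with it. For the repair genes, 1 was called higher with the trend, above the median level and with block and trend, and 1 lower with the trend and with block and trend. Without 1 array 0 to 1 was higher and 0 to 3 lower. At an unadjusted p under 0.05, 1 higher became 4 with the trend, 2 and 4 under the filters, 6 with block and trend, 4 over all rows with the trend and 1 to 6 without 1 array, and 3 lower became 5 with block and trend and 0 to 4 without 1 array. The share of all genes higher at that p was 9.25% with the trend, 9.85% and 14.2% under the filters, 9.27% with block and trend, 7.17% for all rows with the trend and 4.54% to 9.35% without 1 array, and the share lower was 9.64% with block and trend and 3.81% to 10.6% without 1 array. The repair genes' median of 0.05 stayed between 0.02 and 0.06. Other repair genes went to 5 higher and 2 lower with the trend, 3 and 4 above the median level, 5 and 3 with block and trend, and 0 to 3 and 0 to 4 without 1 array. S phase genes went to 5 higher and 1 lower with the trend, 3 higher above the median level, 6 and 1 with block and trend, and 0 to 4 and 0 to 1 without 1 array. For p53 targets, 1 higher became 2 with the trend, quantile normalization, centring, the 25th percentile, block and trend, and all rows with the trend, 4 above the median level, 0 with the block or all rows, and 0 to 2 without 1 array, and 0 lower became 2 with the trend or above the median level, 4 with block and trend and 0 to 4 without 1 array. Markers went to 7 higher and 3 lower with the trend, 1 higher centred, 3 and 6 higher under the filters, 7 and 4 with block and trend, 3 higher over all rows with the trend, and 0 to 6 and 0 to 3 without 1 array. The cause of these shifts was not tested.

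The direction did not reverse in any alternative for 24 of the 35 repair genes. These include Chek1, which was at 0.00 without control replicate 1. Fance was at -0.01 after centring and Atr at -0.05 with the mean of rows. Leaving out 1 array gave -0.05 to 0.09 for Palb2 (-0.03 without control replicate 2), -0.06 to 0.32 for Rad51b, -0.21 to 0.06 for Rad52, -0.05 to 0.07 for Fance, -0.25 to 0.05 for Fancf, -0.01 to 0.08 for Fancg, -0.09 to 0.02 for Slx4 (0.01 without decitabine replicate 1), -0.16 to 0.07 for Ercc4, -0.02 to 0.12 for Xrcc1 and -0.07 to 0.19 for Lig1. A fit with 1 array in a group takes that array to vary like the other group. Signal over background is not given in the sources used here.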
